A study of Mus musculus with 63 samples.

Results

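Cathepsins and genes of phagocytic microglia were followed through hippocampal tissue cultures that had or had not lost their entorhinal input. The 10 genes were Ctsz, Ctsd, Ctsb and Ctss (cathepsins Z, D, B and S), Cst7 (cystatin F), Cd63, Cd68, Gpnmb, Lgals3 (galectin-3) and Spp1 (osteopontin). They were chosen by symbol, as lysosomal genes and genes of disease-associated microglia, from the 55291 gene symbols counted. Earlier results of these data were known at that choice, so counts of members beside the share of all genes are descriptions. All 10 passed the filter on low counts in each of the 17 comparisons.

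Microglia are the resident macrophages of the brain, and they take up debris when axons and terminals degenerate. The material taken up is broken down in lysosomes, where cathepsins cut proteins and cystatins restrain the cysteine cathepsins. Disease-associated microglia are a state known from neurodegeneration in which lysosomal genes and genes such as Cst7, Gpnmb, Lgals3 and Spp1 are raised while homeostatic microglia genes are reduced. Cutting the perforant path, the projection from the entorhinal cortex to the dentate gyrus and CA3, leaves degenerating axons in both fields, and denervated fields of this kind are known for microglial activation.

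RNA was sequenced from organotypic entorhino-hippocampal cultures prepared at postnatal days 3 to 5 and kept for at least 18 days in vitro. Wildtype cultures (Synpo+/+) came from C57BL/6J mice, and synaptopodin-deficient cultures (Synpo-/-) came from B6.129-Synpotm1Mndl/Dllr mice backcrossed to C57BL/6J. Mice of either sex were used, and all cultures of both genotypes received horse serum in the medium. The lesion (entorhinal cortex lesion, ECL) was a scalpel cut through the perforant path, and control cultures were left uncut. In the regional experiment the tissue was taken 3 days after the cut, and for the lesioned pools of the second experiment the interval is not given in the sources used here. A regional experiment took a dentate gyrus (DG) or a CA3 area cut by scalpel from a single culture for each of 39 libraries. Wildtype CA3 was represented by 2 control and 3 lesioned libraries, wildtype DG by 4 and 7, Synpo-/- CA3 by 6 and 6, and Synpo-/- DG by 7 and 4. A second experiment of 24 libraries pooled 6 whole cultures per replicate and compared the lysate (input) with RNA that came down with an antibody to synaptopodin (coIP). It held 5 inputs and 5 coIPs each from control and from lesioned wildtype cultures, and 2 inputs and 2 coIPs from Synpo-/- cultures. Organotypic cultures keep their resident glia but have no blood flow, and every library mixed all cell types of the piece of tissue.

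Levels are given as counts per 1000000 counts of a library (CPM), with library totals scaled by edgeR's TMM factors within each experiment. The counts summed to 14055930 to 46043990 in the regional libraries and to 11601154 to 53682143 in the second experiment. Differences are log2 fold changes with standard errors (SE) from edgeR's quasi-likelihood test, and a gene was called at a Benjamini-Hochberg adjusted p under 0.05 over all genes tested. The 16 microglia markers (Aif1, Itgam, C1qa, P2ry12, Tmem119 and others) had counts in every library. Markers of border macrophages and monocytes were sparser. S100a9 was at 0 in 42 libraries and Ly6c2 in 30. Prox1, the marker of dentate granule cells, separated the regions with 1 exception. The library labelled wildtype DG ECL replicate 5 had 15.5 CPM of Prox1, against 169.6 to 217 in the 6 other libraries of its group and 15.6 to 44.0 in Synpo-/- CA3 controls. Its summed dentate granule cell markers reached 49.5 CPM and its CA3 pyramidal cell markers 645 CPM. This library goes against its label, and fold changes or calls of members without it are given beside the comparisons that use it. The CPM values and the counts over all genes, cell type markers and pathway lists include it. The targeted gene itself, Synpo, had at least as much RNA under the label Synpo-/- (30.4 to 49.1 CPM in control CA3 and 41.0 to 69.3 in control DG) as in wildtype (25.8 to 25.9 and 19.1 to 24.5 CPM). In the second experiment the inputs overlapped (26.4 to 29.9 CPM under the label Synpo-/-, 20.3 to 32.2 in control and 23.7 to 30.8 in lesioned wildtype). The coIPs labelled Synpo-/- (25.7 to 30.7 CPM) lay below those of lesioned wildtype cultures (35.1 to 41.2) and overlapped those of control ones (27.0 to 42.2). The RNA of the targeted gene in the regional and input libraries thus does not bear that label out. Synpo-/- stands throughout for libraries labelled so. Counts over whole genes do not show where the allele is changed.

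In the GRCm38 build (mm10) used for counting, the cathepsin genes among the members lie on separate chromosomes. Ctsz shares chromosome 2 with Cst7, and Ctsb shares chromosome 14 with Lgals3. Ctsz is at chr2:174427493-174439039, Cst7 at chr2:150570415-150578944, Ctsd at chr7:142375911-142388038, Ctsb at chr14:63122462-63145923 and Ctss at chr3:95526786-95556403. Cd63 is at chr10:128900989-128912822, Cd68 at chr11:69664213-69666153, Gpnmb at chr6:49036546-49070929, Lgals3 at chr14:47367751-47386160 and Spp1 at chr5:104435118-104441050. All are protein-coding, and values are sums over their annotated exons. Reads were counted without strand, and 4 of the genes share exon bases with another gene. The overlap was 12.8% of the exon length of Ctsb (with Fdft1, on the opposite strand), 34.4% of Ctsd (with Gm49369, which had no counts), 18.8% of Spp1 (with Gm42793, with a mean count of 5.21) and 0.694% of Ctsz (with Nelfcd). Reads from the shared bases of Ctsb and Fdft1 cannot be told apart, at mean counts of 26220 for Ctsb and 1120 for Fdft1.

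Promoter sequences are shown for 4 of the genes that rose together in the denervated DG. RefSeq promoters of build GRCm38.p6 (250 bases before to 50 after the start) were matched for 9 of the genes. Ctsb had no match. The stretches before the start are printed for Ctsd (chr7:142387828-142388077, minus strand), Cst7 (chr2:150570165-150570414, plus strand), Cd68 (chr11:69666171-69666420, minus strand) and the first of the 2 promoters of Spp1 (chr5:104434861-104435110, plus strand). Capitals mark matches on either strand to 4 patterns. TCANGTGA and CACGTG cover letters read by the MiT/TFE family of lysosomal transcription factors. GAGGAAG is read by the macrophage factor PU.1, and TGANTCA by AP-1. N stood for any base, so a match to TCANGTGA need not hold letters read by the MiT/TFE family.
Ctsd: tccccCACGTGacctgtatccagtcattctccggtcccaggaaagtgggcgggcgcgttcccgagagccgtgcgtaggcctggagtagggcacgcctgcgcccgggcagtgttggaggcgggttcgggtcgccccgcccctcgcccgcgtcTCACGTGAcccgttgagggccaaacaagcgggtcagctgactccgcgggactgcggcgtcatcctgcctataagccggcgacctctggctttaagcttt
Cst7: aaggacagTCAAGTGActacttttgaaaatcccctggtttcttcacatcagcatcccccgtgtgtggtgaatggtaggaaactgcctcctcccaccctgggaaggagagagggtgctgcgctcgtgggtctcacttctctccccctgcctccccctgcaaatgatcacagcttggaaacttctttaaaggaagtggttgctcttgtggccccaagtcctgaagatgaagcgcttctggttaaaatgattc
Cd68: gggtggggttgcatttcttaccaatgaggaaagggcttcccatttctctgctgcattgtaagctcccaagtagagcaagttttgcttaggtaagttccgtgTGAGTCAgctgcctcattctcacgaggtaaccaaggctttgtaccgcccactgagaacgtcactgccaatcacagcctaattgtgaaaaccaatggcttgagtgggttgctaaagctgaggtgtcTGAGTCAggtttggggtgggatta
Spp1: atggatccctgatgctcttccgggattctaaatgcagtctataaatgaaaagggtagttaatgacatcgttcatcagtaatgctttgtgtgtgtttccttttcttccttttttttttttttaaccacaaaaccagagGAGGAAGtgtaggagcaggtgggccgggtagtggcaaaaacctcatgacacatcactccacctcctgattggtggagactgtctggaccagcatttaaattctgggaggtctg
Ctsd held CACGTG at both capitalised sites, and the second site also matched TCANGTGA, so these motifs overlap there. Cst7 held a TCANGTGA match, and a TGANTCA match that crossed its start and so lies partly outside the printed stretch. Cd68 held TGANTCA at 2 places and Spp1 held GAGGAAG. Over the whole 300 bases, TCANGTGA was found in promoters of Ctsd, Ctss, Cst7 and Lgals3 and in 4.18% of all 32851 promoters. CACGTG was found in Ctsd alone among the members and in 7.15% of all promoters. GAGGAAG was found in Ctss, Cd63 and Spp1 (13.6% of all) and TGANTCA in Cd68, Gpnmb and Cst7 (7.81% of all). No match to any of the 4 was found in the promoter of Ctsz. These matches describe the letters and were not tested as binding sites.

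Per length, Ctss and Ctsb were the highest members in wildtype control DG. The mean level per kilobase of exon there was 260.1 ± 58.8 CPM per kb (SD, n = 4) for Ctss, 106 ± 16.2 for Ctsb, 69.7 ± 9.28 for Ctsd and 67.3 ± 5.75 for Cd63. Cd68 (50.3 ± 13.1), Spp1 (50.1 ± 27.3) and Ctsz (38.2 ± 3.41) followed, and their spreads overlapped. Lgals3 (11.2 ± 1.20) and Cst7 (11.1 ± 5.32) were lower and did not differ beyond their spread. Gpnmb was lowest at 2.57 ± 0.866 CPM per kb. These lengths include the exon bases shared with other genes in full.

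**Figure D1:**
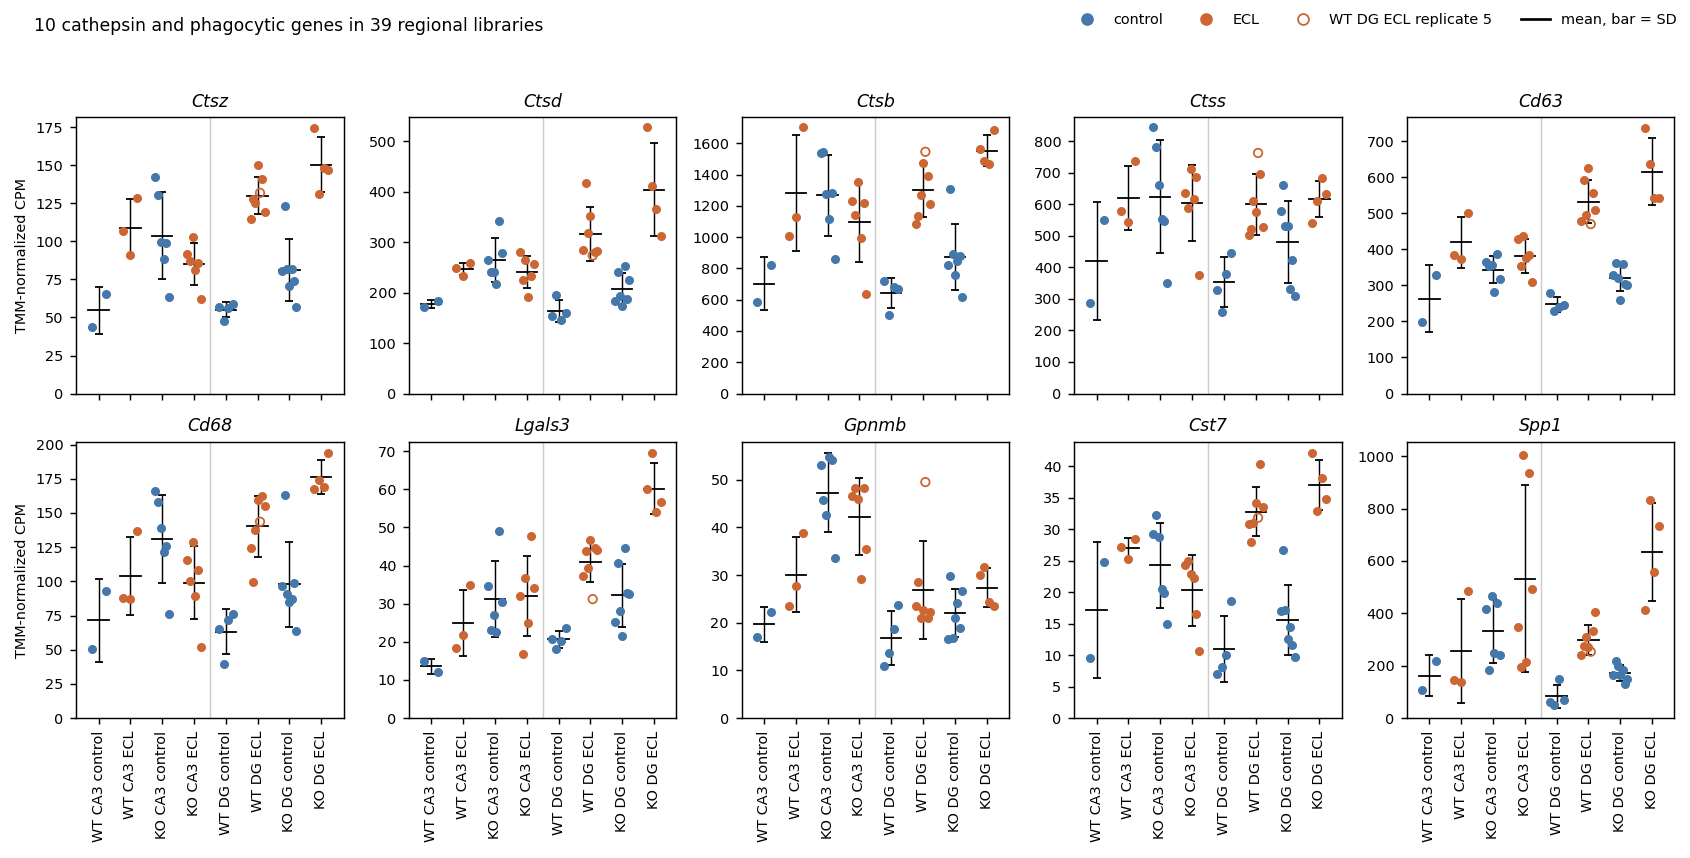
TMM-normalized CPM of each of the 10 genes in the 39 regional libraries, with 1 point per library and the group mean with bars of 1 SD, for control (blue) and lesioned (orange) CA3 and DG of wildtype (WT) and Synpo-/- (KO) cultures. The open circle is wildtype DG ECL replicate 5. In DG the lesioned libraries sit above the controls for 9 genes in wildtype and 8 in Synpo-/- cultures, while in Synpo-/- CA3 the points of control and lesioned libraries overlap for all 10.

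After the lesion, 9 of the 10 genes rose in wildtype DG, all but Gpnmb. The comparison asked how the denervated dentate gyrus differed from the uncut one. Of all 23720 genes tested, 12.2% were called, and 7.86% were called as higher. The median log2 fold change of the members was 1.03, beside -0.003 over all genes tested. For the same 9 genes every lesioned library lay above every control, an arrangement that 7.68% of all genes showed.

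Ctsz, a lysosomal carboxypeptidase, had the smallest adjusted p of the cathepsins in wildtype DG. Its control libraries had 56.7, 47.9, 56.3 and 59.1 CPM, and its 7 lesioned libraries had 115 at the lowest, 128 at the median and 150.3 at the highest. The groups did not overlap, with a log2 fold change of 1.21 ± 0.11 (SE) and an adjusted p of 2.32e-05. Ctsd, the main aspartic protease of lysosomes, had 154, 196, 146 and 159 CPM in controls and 274 at the lowest, 285 at the median and 418 at the highest after the lesion. Its lesioned libraries were all higher, by 0.92 ± 0.14 (SE) with an adjusted p of 0.000855. Ctsb, a cysteine protease, had 722, 501, 683 and 669.6 CPM in controls and 1084 at the lowest, 1272 at the median and 1546 at the highest in lesioned DG. It rose by 0.99 ± 0.14 (SE) (adjusted p = 0.000597), again without overlap. Ctss, a cysteine protease of antigen-presenting cells that also works at neutral pH, ranged over 329, 258, 379 and 447 CPM in controls and over 503 at the lowest, 575 at the median and 763 at the highest in lesioned cultures. Its change was the smallest of the cathepsins at 0.73 ± 0.16 (SE) (adjusted p = 0.0107), and the highest control still lay below the lowest lesioned library.

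Cst7, whose product inhibits cysteine cathepsins in immune cells, had 6.97, 8.18, 9.96 and 18.6 CPM in wildtype DG controls, with replicate 4 well above the others. The lesioned libraries had 28.0 at the lowest, 31.8 at the median and 40.4 at the highest. The increase of 1.56 ± 0.22 (SE) (adjusted p = 0.000671) was larger than that of any cathepsin among the members, as fitted values, and their differences were not tested.

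Cd63 and Cd68 encode membrane proteins of late endosomes and lysosomes, a tetraspanin and the macrophage glycoprotein macrosialin. Cd63 had 278, 228, 241 and 244 CPM in wildtype DG controls and 470.2 at the lowest, 511 at the median and 626 at the highest after the lesion, a rise of 1.08 ± 0.12 (SE) (adjusted p = 6.42e-05). Cd68 had 65.3, 39.4, 72.1 and 76.1 CPM in controls and 99.5 at the lowest, 144 at the median and 162 at the highest after the lesion, a rise of 1.12 ± 0.18 (SE) (adjusted p = 0.00141). Neither gene's groups overlapped. Gpnmb, a transmembrane glycoprotein of phagosomes, was the exception. Its controls had 10.8, 13.7, 18.7 and 23.6 CPM and its lesioned libraries 20.9 at the lowest, 22.7 at the median and 49.5 at the highest, so the groups overlapped. The difference of 0.65 ± 0.24 (SE) did not pass the test (adjusted p = 0.083). Its highest lesioned value was that of replicate 5, the library with little Prox1. Without that library the log2 fold change of Gpnmb was 0.43 (adjusted p = 0.0976), and the same 9 members were called. Ctsz was then at 1.20, Ctsd at 0.94, Ctsb at 0.93, Ctss at 0.66, Cst7 at 1.56, Cd63 at 1.09 and Cd68 at 1.10. Gpnmb was called with all 4 DG groups in one fit (0.68, adjusted p = 0.0397), which kept replicate 5.

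The secreted members rose too. Lgals3, a galectin that binds glycans of damaged lysosomes and cell surfaces, had 20.8, 18.2, 20.3 and 23.6 CPM in controls and 31.2 at the lowest, 43.7 at the median and 46.6 at the highest in lesioned wildtype DG (0.96 ± 0.13 (SE), adjusted p = 0.000501). Spp1, a secreted phosphoprotein that binds integrins and CD44, had 60.8, 51.4, 149 and 68.7 CPM in controls, with replicate 3 highest. Its lesioned libraries had 241 at the lowest, 277 at the median and 404 at the highest. At 1.83 ± 0.26 (SE) (adjusted p = 0.000683) it had the largest fitted change of the 10, and all lesioned libraries were above all controls. Without replicate 5 the values were 1.00 for Lgals3 and 1.85 for Spp1.

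In DG of cultures labelled Synpo-/-, 8 of the 10 genes rose after the lesion, and Ctss and Gpnmb did not pass the test. Of all 23310 genes tested, 8.53% were called, 5.17% as higher, and the members' median log2 fold change was 0.85 beside 0.013 over all genes. The 4 lesioned libraries lay wholly above the 7 controls for the 8 called genes, as they did for 5.43% of all genes.

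Among the cathepsins, Ctsz had 56.8 at the lowest, 80.5 at the median and 123 at the highest CPM in Synpo-/- DG controls and 175, 131, 149 and 147 after the lesion. It rose by 0.84 ± 0.15 (SE) (adjusted p = 0.00283). Ctsd had 173 at the lowest, 192 at the median and 253 at the highest in controls and 528, 411, 366 and 312 in lesioned libraries, a rise of 0.92 ± 0.13 (SE) (adjusted p = 0.000396). Lesioned replicate 1 was the highest for both genes. Ctsb had 619 at the lowest, 845 at the median and 1307 at the highest in controls and 1563, 1485, 1469.9 and 1688 after the lesion, with a rise of 0.78 ± 0.15 (SE) (adjusted p = 0.00346). Ctss had 310.2 at the lowest, 530.4 at the median and 662 at the highest in controls and 542, 612, 683 and 633 after the lesion. Its groups overlapped, and the difference of 0.31 ± 0.18 (SE) had an adjusted p of 0.348.

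Cst7 had 9.74 at the lowest, 14.4 at the median and 26.7 at the highest CPM in Synpo-/- DG controls and 42.0, 32.9, 38.1 and 34.9 after the lesion (1.20 ± 0.20 (SE), adjusted p = 0.00147). Cd63 had 260.4 at the lowest, 321 at the median and 363 at the highest and 738, 638, 543 and 543 (0.90 ± 0.11 (SE), adjusted p = 9.16e-05). Cd68 had 63.9 at the lowest, 90.7 at the median and 163 at the highest and 167, 174, 169 and 194 (0.80 ± 0.17 (SE), adjusted p = 0.00875). For Cd68 the gap was narrow, since control replicate 2, the highest of its group, reached 163 CPM against 167 in the lowest lesioned library. Gpnmb had 16.5 at the lowest, 21.0 at the median and 29.7 at the highest in controls and 30.1, 31.6, 24.3 and 23.4 after the lesion, with overlap (0.27 ± 0.15 (SE), adjusted p = 0.324). Lgals3 had 21.5 at the lowest, 32.4 at the median and 44.5 at the highest and 60.2, 69.5, 54.2 and 56.7 (0.86 ± 0.15 (SE), adjusted p = 0.00208). Spp1 was the strongest member here as well, at 132 at the lowest, 166 at the median and 217 at the highest in controls and 411, 834, 559.6 and 733 after the lesion. Its log2 fold change was 1.83 ± 0.16 (SE) with an adjusted p of 5.96e-06, and the lowest lesioned library had more Spp1 than the highest control.

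**Figure D2:**
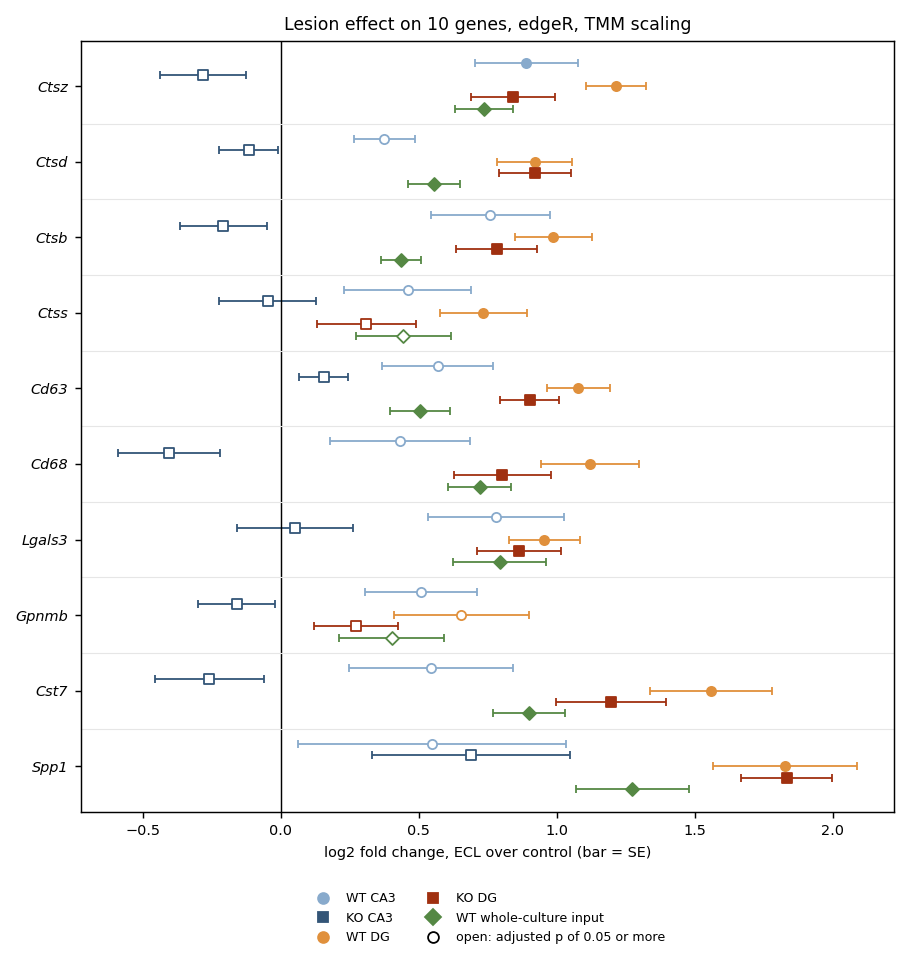
Log2 fold change of lesioned over control libraries for each gene, with bars of 1 SE, in wildtype (WT) and Synpo-/- (KO) CA3 and DG and in whole-culture input. Filled points passed an adjusted p of 0.05, and the DG and input points lie above 0 for all 10 genes while those of Synpo-/- CA3 scatter around 0.

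In wildtype CA3, where 2 controls were set against 3 lesioned libraries, Ctsz was the only member called by edgeR, and DESeq2 called Ctsz, Ctsd, Ctsb, Cd63 and Lgals3. Of all 22340 genes tested, 1.78% were called by edgeR and 1.50% were called as higher, and DESeq2 called 3.04% of the genes with any count. The Ctsz controls had 43.9 and 65.5 CPM and the lesioned libraries 107, 91.3 and 129, a log2 fold change of 0.89 ± 0.19 (SE) (adjusted p = 0.0465). The call was lost when any library but control replicate 2 was left out, and 4 members were called without that control. All 10 fitted values were above 0, with a median of 0.55 beside -0.01 over all genes. For 7 members the lesioned libraries lay wholly above the controls, as they did for 30.2% of all genes.

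Among the other members of wildtype CA3, the 2 controls lay close for some and far apart for Cst7 (9.53 and 24.8 CPM). Ctsb had 582 and 824 CPM in controls and 1008, 1132 and 1705 after the lesion (0.76 ± 0.21 (SE), adjusted p = 0.0842). Ctsd had 171 and 183 and 248, 234 and 259 (0.37 ± 0.11 (SE), adjusted p = 0.0932). Lgals3 had 14.99 and 12.1 and 18.5, 21.8 and 34.8 (0.78 ± 0.25 (SE), adjusted p = 0.107). These 3 genes did not overlap between groups and did not pass edgeR's test. Spp1 had 108 and 217 CPM in controls and 146, 138 and 487 after the lesion. Lesioned replicate 3 alone stood above the controls, and the difference was 0.55 ± 0.49 (SE) (adjusted p = 0.52). Ctss, Cd63, Cd68, Gpnmb and Cst7 had log2 fold changes of 0.46, 0.57, 0.43, 0.51 and 0.54, and none was called by edgeR. DESeq2 called Cd63 (0.63, adjusted p = 0.0398), and edgeR called Ctss, Cd63 and Cst7 without control replicate 2.

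In Synpo-/- CA3, with 6 libraries on each side, no member was called by edgeR's test or by DESeq2, and 1 member, Cd68, had an unadjusted p under 0.05. Of all 20772 genes, 0.0770% were called and 7.27% had an unadjusted p under 0.05. The median log2 fold change of the members was -0.14 beside 0.0011 over all genes, 7 of the 10 values were below 0, and all 10 genes overlapped between groups. Cd68 had 75.7 at the lowest, 132 at the median and 166 at the highest CPM in controls and 51.7 at the lowest, 104 at the median and 128 at the highest in lesioned libraries (-0.40 ± 0.19 (SE), adjusted p = 0.684). Ctsz had 63.4 at the lowest, 99.3 at the median and 143 at the highest and 61.9 at the lowest, 86.5 at the median and 103 at the highest (-0.28 ± 0.15 (SE), adjusted p = 0.747). Spp1 was widely spread, with 183 at the lowest, 334 at the median and 465 at the highest in controls and 196 at the lowest, 421 at the median and 1006 at the highest after the lesion (0.69 ± 0.36 (SE), adjusted p = 0.73). Lesioned replicates 3 and 5 had 1006 and 937 CPM of Spp1, above every control, while replicates 2 and 4 had 196 and 215.

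Whether the lesion response differed between regions was tested as an interaction within each genotype. In Synpo-/- cultures 6 members had a larger log2 fold change in DG than in CA3, while 1.12% of all 25435 genes were called and 0.877% were called as larger in DG. The differences of log2 fold changes were 1.43 ± 0.31 (SE) for Cst7 (adjusted p = 0.0199), 1.18 ± 0.29 (SE) for Cd68 (0.0375), 1.10 ± 0.24 (SE) for Ctsz (0.0216), 1.02 ± 0.18 (SE) for Ctsd (0.00508), 0.96 ± 0.24 (SE) for Ctsb (0.0452) and 0.72 ± 0.15 (SE) for Cd63 (0.0158). Spp1 did not pass (1.12 ± 0.45 (SE), adjusted p = 0.3), nor did Lgals3, Gpnmb and Ctss. Ctsd, Cd63 and Cst7 stayed called with each of the 23 libraries left out in turn and Ctsz with 22 of them. Cd68 was called in 9 of the 23 fits and Ctsb in 6, and without DG ECL replicate 1 the number of members called was 3. In wildtype cultures no member was called by edgeR or DESeq2, 3 had an unadjusted p under 0.05, and edgeR called 0 of 27783 genes (0%), of which 4.46% had an unadjusted p under 0.05. Its largest differences were 1.22 ± 0.56 (SE) for Spp1 and 0.98 ± 0.41 (SE) for Cst7. Without DG ECL replicate 5 they were 1.26 and 0.99, and no member was called.

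Whether the lesion response differed between genotypes was tested in each region. In CA3 no member was called by edgeR, 5 had an unadjusted p under 0.05, and DESeq2 called 1. Of 26821 genes edgeR called none (0%), 17.1% had an unadjusted p under 0.05, and DESeq2 called 0.741% of the genes with any count. Ctsz had the smallest adjusted p, with a log2 fold change that was lower in libraries labelled Synpo-/- by -1.21 ± 0.32 (SE) (adjusted p = 0.14). In DG the call rate was 0.00381% of 26245 genes, no member was called by either tool, and none had an unadjusted p under 0.05. The fitted differences in DG lay between -0.46 and -0.029, so the genes called in the wildtype DG and not in the Synpo-/- DG, such as Ctss, were not shown to respond differently. Without DG ECL replicate 5 the differences lay between -0.41 and -0.069, and no member was called.

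Microglia markers moved with these genes. Their summed level was 600.2 to 934 CPM in wildtype DG controls and 1501 to 1859.9 in lesioned DG, and 787 to 1512 and 1768 to 2004 in Synpo-/- DG. In wildtype DG 15 of the 16 markers and all 12 homeostatic microglia genes rose, and in Synpo-/- DG 11 of 16 and 6 of 12 did. Of all genes, 7.86% were called as higher in wildtype DG and 5.17% in Synpo-/- DG. In CA3 the sums were 665 to 1143 and 1258 to 1583 CPM in wildtype and 946 to 1767 and 809 to 1507 in Synpo-/- cultures. Astrocyte markers moved in DG as well (6 of 9 higher in wildtype and 7 of 9 in Synpo-/- libraries), and 1 of the 6 markers of border macrophages and monocytes that could be tested rose in each. In bulk tissue more microglia and more RNA per microglial cell cannot be told apart.

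To set each member against the microglia markers of the same library, the fit was repeated with the summed counts of the 16 markers in place of library size. On this scale Spp1 rose in DG of both genotypes, and Ctss fell, though calls in both genotypes depended on the marker list. In wildtype DG the call of Ctss did, and in Synpo-/- DG the number of members called did. In wildtype DG the median over all genes was -1.14, 91.4% of genes were called, 91.2% as lower and 0.135% as higher. Spp1 (0.71 ± 0.23 (SE), adjusted p = 0.00739) and Cst7 (0.48 ± 0.18 (SE), 0.0165) rose relative to the markers, and Ctss fell (-0.37 ± 0.13 (SE), 0.0134). Gpnmb was at -0.43 ± 0.23 (SE) (adjusted p = 0.0779), and without DG ECL replicate 5 it was called at -0.64 (adjusted p = 0.00217). Without that library Spp1 was at 0.76, Cst7 at 0.49 and Ctss at -0.43, all called. Cst7 lost its call without control replicate 1 (0.32, adjusted p = 0.0925), where Gpnmb was called (-0.59). Spp1 and Ctss were called with each of the 11 libraries left out in turn, and Spp1 ranged over 0.57 to 1.16, with the highest value without control replicate 3. The 6 other members lay between -0.24 and 0.085, and between -0.20 and 0.090 without DG ECL replicate 5.

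In Synpo-/- DG, 65.9% of genes were called, 65.7% as lower and 0.257% as higher, around a median of -0.87. Spp1 rose relative to the markers (0.99 ± 0.19 (SE), adjusted p = 4.93e-05), while Gpnmb (-0.60 ± 0.22 (SE), 0.0167) and Ctss (-0.50 ± 0.18 (SE), 0.0153) fell. Cst7 was at 0.39 ± 0.20 (SE) (adjusted p = 0.0762). With a library left out, Spp1 was called in all 11 fits, and Gpnmb was not called without control replicate 7 (-0.47) or lesioned replicate 3 (-0.53) or 4 (-0.53). Ctss was not called without lesioned replicate 1 (-0.43), and Cst7 was called without control replicate 2 (0.45) or 5 (0.44). With the 12 homeostatic genes as the scale, 1 member in place of 3 was called in Synpo-/- DG and 2 in wildtype DG. In CA3 no member was called on this scale in either genotype, where 8.79% (wildtype) and 0% (Synpo-/-) of genes were. The counts at an unadjusted p under 0.05 were 0 and 2, and this fit was run in edgeR alone.

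**Figure D3:**
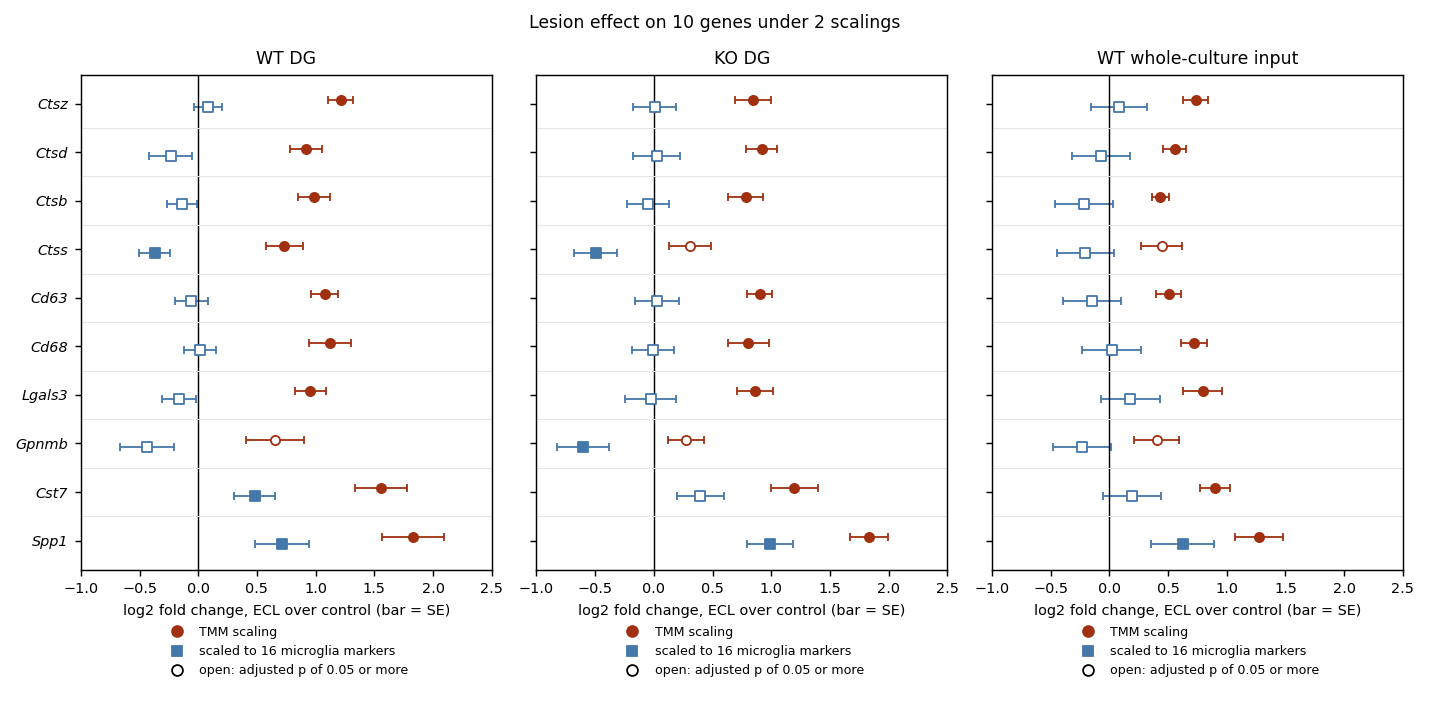
Log2 fold change of lesioned over control for each gene with TMM scaling (circles) and scaled to the summed counts of 16 microglia markers (squares), with bars of 1 SE, in wildtype DG, Synpo-/- (KO) DG and whole-culture input. Filled symbols passed an adjusted p of 0.05, and on the marker scale Spp1 stays above 0 in all 3 panels while Ctss lies below 0 in both DG panels.

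**Figure D4:**
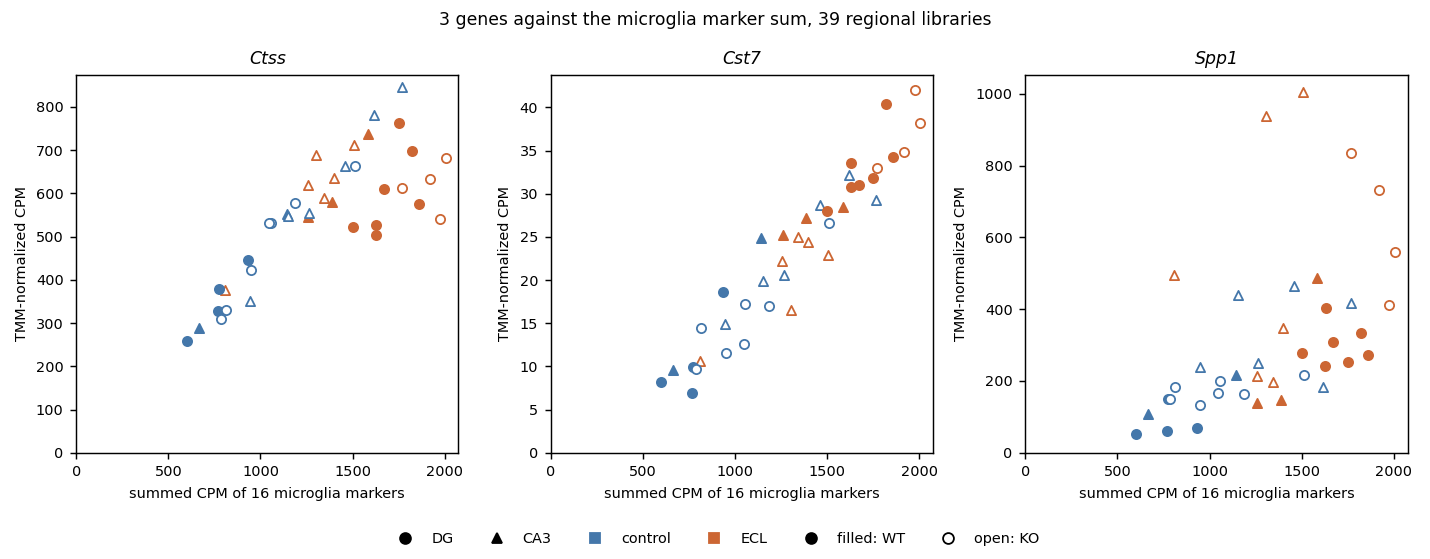
TMM-normalized CPM of Ctss, Cst7 and Spp1 against the summed CPM of the 16 microglia markers, with 1 point per library for the 39 regional libraries of DG (circles) and CA3 (triangles), wildtype (filled) and Synpo-/- (open). In lesioned wildtype DG, where marker sums were 1501 to 1859.9 CPM, Ctss lies at 503 to 763, Cst7 at 28.0 to 40.4 and Spp1 at 241 to 404 CPM, and Spp1 scatters most widely over all libraries.

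The genes most alike to each member in level over the 39 regional libraries were taken by Pearson's r of log2 CPM among 30550 genes. These libraries share the lesion, the region and the share of microglia, so r is a description. Ctsz was most like C1qb (0.961), a complement subunit of microglia, and Ctsb was most like the lysosomal protease Lgmn (0.984) and C1qb (0.959). Cst7 was most like C1qb (0.938), Ctss like the Fc receptor Fcgr3 (0.943), and Cd68 like the lysosomal cholesterol carrier Npc2 (0.945). Cd63 was most like Gpx1 (0.946) and Ctsd most like Pbxip1 (0.906). The lowest best matches were those of Spp1 with the lysozyme gene Lyz2 (0.878), Gpnmb with Chst2 (0.856) and Lgals3 with Vcam1 (0.846). The second matches were Rac2 for Ctsz (0.951), C4b for Ctsd (0.902), Cd72 for Ctss (0.937), Vamp8 for Cd63 (0.944), Fcer1g for Cd68 (0.94), Olfml3 for Cst7 (0.936), Hmox1 for Lgals3 (0.825), Cachd1 for Gpnmb (0.837) and Ms4a6d for Spp1 (0.811). Without wildtype DG ECL replicate 5 the first match was the same for all 10 members and the second for 9, all but Ctsd, and no r of these pairs moved by more than 0.00874.

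Other genes of the same pathways were counted beside the members, in lists that were also chosen with earlier results of these data known. Of all genes tested, 7.86% were called as higher in wildtype DG and 5.17% in Synpo-/- DG. In CA3 the shares were 1.50% in wildtype and 0.0530% in Synpo-/- cultures. Of 12 other cathepsins and cystatins tested in wildtype DG, 7 rose and 0 fell, among them Ctsh (1.39, adjusted p = 5.07e-05), the asparaginyl protease Lgmn (1.08, adjusted p = 0.000265) and the cathepsin C gene Ctsc (1.20, adjusted p = 0.000322). In Synpo-/- DG 4 of 12 rose, and Ctsl was one of them (0.58, adjusted p = 0.00153). Of 23 lysosomal hydrolases and membrane proteins, 14 rose in wildtype DG and 6 in Synpo-/- DG, with Gusb, a glucuronidase (1.16, adjusted p = 3.92e-05 in wildtype), and Grn, the progranulin gene (0.84, adjusted p = 0.000233 in Synpo-/-). None of the 4 genes of the MiT/TFE family tested was called in either DG comparison. Other disease-associated microglia genes rose in 16 of 19 cases in wildtype DG and 15 of 20 in Synpo-/- DG, for example the lipid droplet gene Plin2 (1.42, adjusted p = 3.36e-05 and 1.18, adjusted p = 4.95e-05) and the signalling adaptor Tyrobp (0.94, adjusted p = 5.37e-05 and 0.84, adjusted p = 0.000396). Of 9 receptors and partners of osteopontin and galectin-3, 5 rose in each, including the osteopontin receptor Cd44 (0.56, adjusted p = 0.0038 and 0.56, adjusted p = 0.00214) and Lgals3bp (0.97, adjusted p = 0.000595 and 0.82, adjusted p = 0.000732). In wildtype CA3 the calls in these lists were Ctsa (0.95, adjusted p = 0.0421), Hexa (0.87, adjusted p = 0.0423), Apoe (1.56, adjusted p = 0.0137) and Fth1 (1.06, adjusted p = 0.027), and in Synpo-/- CA3 there were none.

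Without a lesion, no member passed edgeR's test between genotypes in either region. In control CA3 no member was called by edgeR, 7 had an unadjusted p under 0.05 and DESeq2 called 6. Over all 24203 genes edgeR called 0.00413% and 16.4% had an unadjusted p under 0.05, and DESeq2 called 1.67% of the genes with any count. All 10 fitted values were higher in libraries labelled Synpo-/-, with a median of 0.80 beside -0.019 over all genes. Gpnmb had 17.1 and 22.2 CPM in the 2 wildtype controls and 33.6 at the lowest, 49.4 at the median and 54.8 at the highest in the 6 Synpo-/- controls (1.21 ± 0.20 (SE), adjusted p = 0.0626). Lgals3 had 14.99 and 12.1 and 22.6 at the lowest, 28.8 at the median and 49.1 at the highest (1.14 ± 0.25 (SE), adjusted p = 0.102). Both did not overlap, like Ctsd and Ctsb, while 11.8% of all genes showed that arrangement. Without Synpo-/- control replicate 6, 3 members were called, and without replicate 4, 1 was. Microglia marker sums were 665 to 1143 and 946 to 1767 CPM in these groups, and their part in the result was not tested.

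In control DG again no member was called by edgeR, 7 had an unadjusted p under 0.05 and DESeq2 called 3. Over all 24143 genes edgeR called 0.0166% and 15.5% had an unadjusted p under 0.05, and DESeq2 called 0.505% of the genes with any count. All 10 values were higher in libraries labelled Synpo-/- and all 10 overlapped. Spp1 was the largest at 1.03 ± 0.23 (SE) (adjusted p = 0.207), with 60.8, 51.4, 149 and 68.7 CPM in wildtype and 132 at the lowest, 166 at the median and 217 at the highest in Synpo-/- controls. Without Synpo-/- control replicate 4, 3 members were called, and without wildtype control replicate 3, whose Spp1 was the highest of its group, 1 was called.

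Between regions without a lesion, DG was compared with CA3. In Synpo-/- controls 3 members were lower in DG, at 25.5% of 21408 genes called and 12.5% called as lower. They were Gpnmb (-1.004 ± 0.14 (SE), adjusted p = 2.55e-05), Spp1 (-0.84 ± 0.18 (SE), 0.00191) and Ctsb (-0.43 ± 0.15 (SE), 0.0345). Gpnmb had 33.6 at the lowest, 49.4 at the median and 54.8 at the highest CPM in CA3 and 16.5 at the lowest, 21.0 at the median and 29.7 at the highest in DG, the 1 member without overlap (6.98% of all genes were wholly lower). The count of 3 was 5 with DESeq2 and 5 with the replicate number as a block, and 6 without DG control replicate 2. DESeq2 called 11.2% of the genes with any count, and the block fit called 6055 of 20780 genes. With 1 of the 13 libraries left out, Gpnmb and Spp1 were called in each fit and Ctsb in 4, and Ctsb was not called without CA3 control replicate 1, 2, 3 or 5 or DG control replicate 1, 3, 4, 6 or 7 (-0.56 to -0.36 over the 13 fits). In wildtype controls no member was called by edgeR, 2 had an unadjusted p under 0.05 and DESeq2 called 1, Lgals3. Over all 25656 genes edgeR called 5.39% and 17.6% had an unadjusted p under 0.05, and DESeq2 called 3.35% of the genes with any count. Lgals3 had 14.99 and 12.1 CPM in wildtype CA3 and 20.8, 18.2, 20.3 and 23.6 in DG, without overlap, like 13.9% of all genes (0.63 ± 0.18 (SE), adjusted p = 0.0538). It was called without DG control replicate 2 (0.68, adjusted p = 0.0355). Spp1 was at -0.96 ± 0.34 (SE), and it was called as lower in DG without CA3 control replicate 1 (-1.37, adjusted p = 0.0426) and without DG control replicate 3 (-1.41, 0.0046).

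In whole wildtype cultures, 8 of the 10 genes rose after the lesion, all but Ctss and Gpnmb. Of 17951 genes, 5.61% were called and 2.45% as higher, and the members' median was 0.64 beside -0.0027. Each input came from a pool of 6 cultures. Spp1 had 265, 432, 285, 322 and 258 CPM in control and 675, 1225, 508, 639.7 and 750.5 in lesioned input (1.27 ± 0.20 (SE), adjusted p = 0.00353). Cst7 had 23.9, 15.8, 16.97, 18.1 and 15.5 and 31.4, 28.7, 32.5, 37.8 and 38.8 (0.90 ± 0.13 (SE), 0.00212). Lgals3 had 32.9, 70.3, 54.3, 52.2 and 52.8 and 89.9, 122, 74.6, 92.5 and 79.1 (0.79 ± 0.17 (SE), 0.0162). In all 3 the lowest lesioned pool lay above the highest control.

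Ctsz had 201, 184, 228, 237 and 216 CPM in control and 299, 322, 356, 379 and 424 in lesioned input (0.74 ± 0.10 (SE), adjusted p = 0.00203). Ctsb had 1992, 2237, 2082, 2325 and 2332 and 2839.8, 2920.0, 3177, 2888 and 3074 (0.43 ± 0.072 (SE), 0.0042). Cd68 had 208, 150.1, 153, 163 and 152 and 218, 299, 258, 272 and 318 (0.72 ± 0.11 (SE), 0.00353). Control replicate 1 was the highest for Cd68 and stayed just under the lowest lesioned pool. Ctsd (0.56 ± 0.095 (SE), 0.00528) and Cd63 (0.50 ± 0.11 (SE), 0.0166) rose as well, and 3.28% of all genes were wholly higher, as the 8 called members were. Ctss (0.44 ± 0.17 (SE), 0.161) and Gpnmb (0.40 ± 0.19 (SE), 0.267) overlapped and were not called. Cd63 was not called without control replicate 2 (adjusted p = 0.0577), and Ctss was called without lesioned replicate 1 (0.57). The microglia marker sum was 909.7 to 1579.9 CPM in control and 1563 to 2277 in lesioned input. Relative to it, Spp1 was the 1 member called (0.63 ± 0.27 (SE), adjusted p = 0.0434), where 57.1% of genes were called and 0.379% as higher. That call was lost without lesioned replicate 1, 2 or 5 or control replicate 3, 4 or 5.

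RNA that came down with the antibody to synaptopodin held less of 6 members in control and 8 in lesioned wildtype cultures. This was against the input of the same lysates, with TMM scaling. Synaptopodin is a protein of neuronal dendrites and spines. The fraction as a whole was remade by the step, since 55.0% of 18222 genes were called in control cultures and 25.5% were called as lower. In control wildtype cultures 6 members were lower in the coIP. Lgals3 had 32.9, 70.3, 54.3, 52.2 and 52.8 CPM in input and 19.6, 29.5, 21.7, 23.1 and 26.3 in coIP, in the order of replicates (-1.11 ± 0.17 (SE), adjusted p = 6.09e-05). Cst7 had 23.9, 15.8, 16.97, 18.1 and 15.5 and 10.98, 7.90, 8.10, 8.93 and 8.35 (-1.01 ± 0.14 (SE), 3.95e-05). Both genes were lower in the coIP of every replicate and did not overlap, an arrangement that 19.7% of all genes showed. Cd68 (-0.66 ± 0.11 (SE)), Ctsz (-0.53 ± 0.089 (SE)), Cd63 (-0.42 ± 0.10 (SE)) and Spp1 (-0.42 ± 0.14 (SE)) were lower too, with adjusted p-values of 0.000133, 0.00017, 0.00194 and 0.0199. Ctsd (0.25 ± 0.10 (SE), 0.0547), Ctss (-0.34 ± 0.14 (SE), 0.0584), Ctsb (-0.12) and Gpnmb (0.18) were not called by edgeR. DESeq2 called Ctss as lower (-0.38, adjusted p = 0.0312), as did edgeR with RLE factors (0.0398). Spp1 lost its call without input replicate 2 or coIP replicate 5. With the lysate as a block 9 members were called, beside 11393 of 18222 genes. This added Ctsd as higher (0.26, adjusted p = 0.00484), Gpnmb as higher (0.23, 0.0363) and Ctss as lower (-0.33, 0.000304). The microglia markers moved with them, with 7 of 16 lower and 1 higher in the coIP, and their part was not tested.

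In lesioned wildtype cultures 8 members were lower in the coIP, all but Ctsd and Gpnmb, where 58.3% of 18229 genes were called and 27.8% as lower. Cst7 had 31.4, 28.7, 32.5, 37.8 and 38.8 CPM in input and 14.3, 11.3, 12.3, 11.6 and 17.4 in coIP (-1.32 ± 0.13 (SE), adjusted p = 4.38e-06). Lgals3 had 89.9, 122, 74.6, 92.5 and 79.1 and 53.1, 46.4, 31.2, 30.5 and 38.4 (-1.18 ± 0.17 (SE), 4.5e-05). Spp1 had 675, 1225, 508, 639.7 and 750.5 and 544, 597, 357, 338 and 514 (-0.68 ± 0.22 (SE), 0.0166), with the highest coIP pool above the lowest input. The others were Cd68 (-0.87), Ctsz (-0.73), Cd63 (-0.66), Ctss (-0.54) and Ctsb (-0.39), and Ctss was not called without input replicate 5. Ctsd had 566, 608, 624, 601 and 509.8 CPM in input and 554, 657, 547, 673 and 593 in coIP, and the fitted difference was 0.077 ± 0.10 (SE) (adjusted p = 0.531). Of the microglia markers, 11 of 16 were lower and 1 higher.

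The calls between coIP and input changed with a correction for gene length. When the trend of counts on exon length was removed from each library, Cd63 (-0.30), Lgals3 (-0.62) and Ctsb (-0.25) were called as lower in control coIP and Ctsd as higher (0.62, adjusted p = 0.000298), while Cst7 was not called (-0.28, adjusted p = 0.133). In lesioned coIP Ctsb (-0.49), Lgals3 (-0.58) and Cst7 (-0.51) stayed lower, Ctsd was called as higher (0.55, adjusted p = 0.00188), and Ctsz, Ctss, Cd63, Cd68 and Spp1 lost their calls. On that scale Ctsz was at 0.083, Cd68 at 0.012 and Spp1 at 0.13 in control cultures and Ctss at 0.20 in lesioned cultures, all above 0 and none called. Their direction therefore depends on this scale. With the trend removed, 3721 of 18222 genes were called as lower and 5284 as higher in control coIP. In lesioned coIP 3823 of 18229 genes were called as lower and 5554 as higher.

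In Synpo-/- cultures, whose 2 coIPs hold RNA that came down in tissue labelled as lacking the target, 2 members were lower than in the 2 inputs, at 31.4% of 20892 genes called and 16.4% as lower. Lgals3 had 65.0 and 44.5 CPM in input and 26.4 and 32.7 in coIP (-0.92 ± 0.19 (SE), adjusted p = 0.00329). Cst7 had 16.7 and 16.6 and 9.15 and 10.0 (-0.83 ± 0.18 (SE), 0.00426). The 8 other members were not called by either tool, and Cd68 was called without coIP replicate 2 (-0.51). With the length trend removed, Lgals3 stayed called (-0.61) and Cst7 did not (-0.40, adjusted p = 0.122), where 2823 of 20892 genes were called as lower. The difference between genotypes in coIP over input, fitted with control wildtype cultures alone, was called for no member by edgeR or DESeq2. Of the members, 2 had an unadjusted p under 0.05. Of 20621 genes edgeR called 0 (0%), 7.33% had an unadjusted p under 0.05, and DESeq2 called 0.160% of the genes with any count. The members' values lay between -0.094 and 0.47. The differences in control wildtype cultures were thus not shown to be larger or smaller than those of the Synpo-/- lysates. Lesioned wildtype cultures were not set against those lysates, whose titles name no lesion state.

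**Figure D5:**
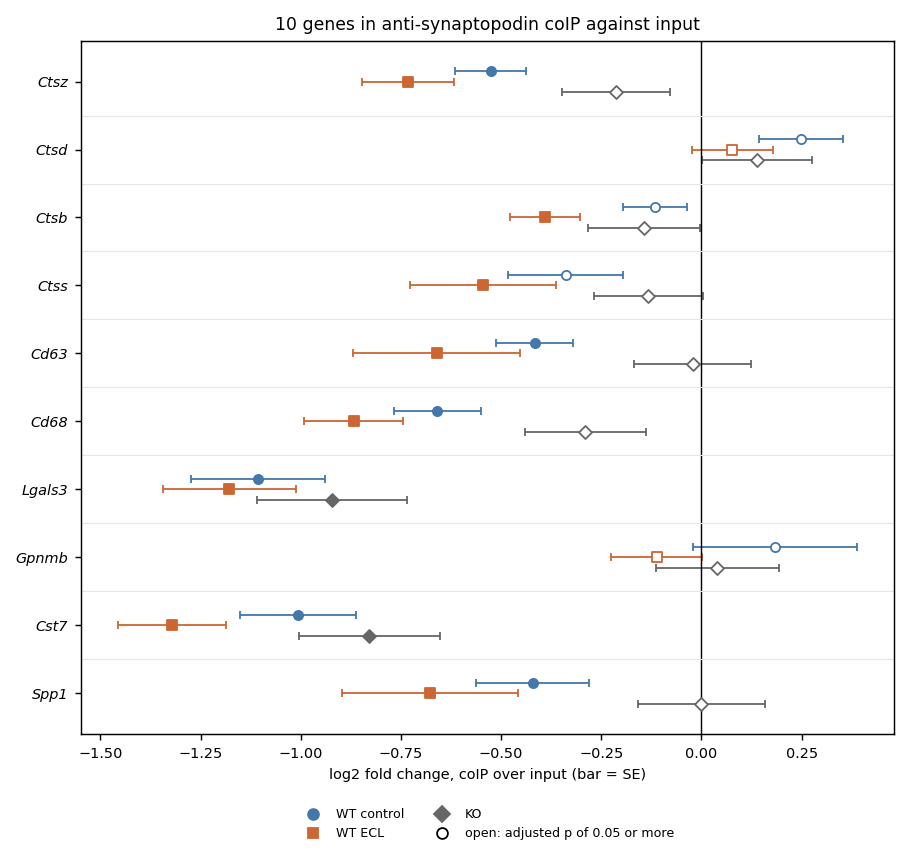
Log2 fold change of coIP over input for each gene with TMM scaling, with bars of 1 SE, in control and lesioned (ECL) wildtype cultures and in Synpo-/- (KO) cultures. Filled symbols passed an adjusted p of 0.05. Cst7 and Lgals3 lie lowest in all 3, between -1.32 and -0.83 for Cst7. Ctsd and Gpnmb lie above 0 in control wildtype cultures and are not filled in any of the 3.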

How the data were processed

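Per the labels, 63 libraries were made with a low-input kit without molecular identifiers, so copies made by PCR were counted as reads. The authors deposited counts: whole numbers of reads per gene, raw and not normalized. The submitters' processing notes name cutadapt 3.5, STAR 2.7.8a and featureCounts 2.0.1, and counting on mm10 used exons of a GENCODE annotation without strand. Reads on bases shared by overlapping genes could therefore not be assigned by strand, and how they were counted was not checked. Of 55291 symbols, 107 stood for several gene IDs and were summed. All columns were used (0 left out).

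Counts were tested in R 4.3.3 with edgeR 4.0.16 (filterByExpr, TMM, quasi-likelihood F-test, Benjamini-Hochberg over all genes tested), with only the groups of each comparison in the fit and no covariate. CPM used TMM-scaled totals, and log2 CPM for likeness had a prior count of 2. The fit relative to microglia replaced library sizes by the summed counts of 16 markers. Alternatives were DESeq2 1.42.0, RLE factors, no filter, a mean normalized count over 300, removal of the gene length trend, a replicate block, all 4 groups of a region, libraries split by Xist against Y-linked counts, another marker list and leaving out each library. The members and lists were chosen with earlier results of these data known. Text names all 10 members, up to 3 genes of smallest p per pathway list, comparison and direction, and the 2 genes most alike to each member. Promoters came from RefSeq (GRCm38.p6), matched by symbol for 9 members.

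Group labels came from titles, and p-values measure the spread between these cultures or pools, which may be technical. Over 130 pairs of replicates within a group the smallest chi-square per degree of freedom was 7.49, so no library was a copy of another of its group. Pairs of libraries from different groups were not compared. The labels pair coIP and input of a lysate, and their deviations from group means correlated at 0.189 to 0.442 in 5 control pairs and 0.105 to 0.381 in 5 lesioned pairs. On simulated counts with 200 genes changed 4-fold, the 17 fits by edgeR called 173 to 200 of them and at most 16 unchanged genes.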

Additional observations from a re-analysis of the deposited data

Results flagged for a closer look

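Some libraries lay far from the rest of their group by Dixon's test, which flags about 1 in 20 groups by chance. Of 100 tests of a gene in a group, 8 were flagged. In Synpo-/- DG controls, replicate 2 was high for 3 genes, with 123.3 CPM of Ctsz (next highest 82.1), 1307.4 CPM of Ctsb (890.9) and 163.2 CPM of Cd68 (98.4). Its microglia marker sum was also the highest of that group at 1512 CPM. Replicate 1 was high for Cd68 in wildtype control input (207.9 CPM against 162.6) and in the coIP of control cultures (123.4 against 99.9). Spp1 was high in wildtype control coIP replicate 2 (294.5 CPM against 220.9). Gpnmb was high in wildtype DG ECL replicate 5 (49.5 CPM against 28.6), the library with little Prox1. Ctss was low in Synpo-/- CA3 ECL replicate 6 (376.4 CPM against 590.0).

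The lesion response differed between DG and CA3 of libraries labelled Synpo-/- for 6 members, by the interaction in edgeR's test. The differences in log2 fold change were 1.43 for Cst7, 1.18 for Cd68, 1.10 for Ctsz, 1.02 for Ctsd, 0.96 for Ctsb and 0.72 for Cd63. The microglia marker sum ranged over 787 to 1512 CPM in control DG and 1768 to 2004 in lesioned DG, and over 946 to 1767 in control CA3 and 809 to 1507 in lesioned CA3. Its part in these differences was not tested. The count of 6 was 3 without Synpo-/- DG ECL replicate 1.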

How the results depend on the processing

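Of 369 alternative counts of called members over 22 results, 324 stayed within 1.5 times the value reported, and 3344 of 3690 values of single genes kept their direction and their side of the threshold. Of the other values 77 lost and 100 gained a call, 4 called values reversed and 165 called in neither setting changed sign. For those that moved, the cause was not tested unless stated. In wildtype CA3 the 1 member called after the lesion became 5 with DESeq2, 9 with no filter on low counts, 0 with RLE factors, 0 with the length trend removed, 0 with all 4 CA3 groups in the fit, and 0 to 4 with a library left out. Relative to microglia markers the count there was 0 to 1 with a library left out. In Synpo-/- DG, 5 of 8 calls were left among libraries with more Xist than Y-linked counts, with fewer libraries in the fit, and 1 of 3 calls relative to homeostatic microglia genes. For genotype by lesion in CA3, where no member was called, DESeq2 gave 1 and no filter 1. For genotype in controls, the 0 in CA3 became 6 with DESeq2, 8 with no filter and 0 to 3 with a library left out, and the 0 in DG became 3, 1 and 0 to 3. For region in wildtype controls the 0 became 1 with DESeq2, 3 with no filter, 1 with the length trend removed and 0 to 1 with a library left out. For region in Synpo-/- controls the 3 became 5 with DESeq2 and 2 to 6 with a library left out. Region by lesion in Synpo-/- cultures kept 3 to 6 calls with a library left out, and the input relative to microglia markers 0 to 1. Removing the length trend shifted the median of all genes by -0.13 in wildtype CA3, -0.14 in wildtype DG and 0.17 and 0.15 for genotype by lesion in CA3 and DG. With it removed, coIP calls numbered 4 in lesioned cultures, 3 of the 8 reported and Ctsd as higher, and 1 in Synpo-/- cultures. Of all genes, 9377 of 18229 and 5871 of 20892 were called in these 2 fits. The removal turned Ctsz (0.083), Cd68 (0.012) and Spp1 (0.13) in control coIP and Ctss (0.20) in lesioned coIP to above 0.

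With the replicate number as a block, over libraries whose number occurs in both groups, calls were 2 for the lesion in wildtype CA3, 2 for genotype by lesion in CA3, 8 for genotype in control CA3, 1 for region in wildtype and 5 in Synpo-/- controls. In that order, these fits called 574 of 21540, 302 of 23929, 2461 of 20456, 581 of 22572 and 6055 of 20780 genes. The fit for genotype in control CA3 held only 2 libraries of each genotype. The replicate numbers pair no cultures in the labels, and not every such pair correlated. Where lysates pair coIP and input, the block gave 9 calls in control, 8 in lesioned and 2 in Synpo-/- cultures. Beside them 11393 of 18222, 11376 of 18229 and 7476 of 20892 genes were called. A block by the biological replicate number in Synpo-/- cultures, chosen after seeing the data, also gave 2 (5884 of 20892 genes). The split by Xist could not be fitted in wildtype CA3, nor for fewer Xist than Y-linked counts in wildtype DG. Depth was 11601154 counts or more in every library. Wildtype CA3 had 2 controls and Synpo-/- cultures 2 lysates, which limits the precision of those comparisons.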

Other observations

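Of 9 receptors and binding partners of osteopontin and galectin-3, 5 were higher in the coIP of control wildtype cultures and 7 in lesioned cultures, and 0 were lower in either, while 29.6% and 30.5% of all genes were higher. With the length trend removed, 6 were higher in each, beside 5284 of 18222 and 5554 of 18229 genes. The integrin genes Itgav (0.73, adjusted p = 1.13e-05) and Itgb5 (0.85, adjusted p = 0.000211) were among them in control cultures, and Itga5 (1.31, adjusted p = 0.000114) in lesioned ones. In Synpo-/- cultures 5 of 9 were higher, beside 3138 of 20892 genes, with Itgb1 at 0.78, adjusted p = 0.00147. Among other cathepsins and cystatins, the cystatin B gene Cstb was lower in the coIP (-1.13, adjusted p = 6.33e-06 in control, -1.28, adjusted p = 6.24e-05 in lesioned and -0.91, adjusted p = 0.00303 in Synpo-/- cultures), and Ctsf was higher (0.41, adjusted p = 0.00485, 0.51, adjusted p = 0.0173 and 0.45, adjusted p = 0.0315). The values of single genes were not corrected for gene length.

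In Synpo-/- cultures the lesion response was larger in DG than in CA3 for 6 of 20 other disease-associated microglia genes, such as the pattern receptor gene Clec7a (1.27, adjusted p = 0.0115), and for 4 of 23 lysosomal hydrolases and membrane proteins, such as Grn (1.03, adjusted p = 0.00219) and the acid lipase gene Lipa (0.86, adjusted p = 0.0195). Of all genes, 0.877% were called as larger in DG. The cystatin E/M gene Cst6 went the other way (-1.34, adjusted p = 0.0324). Without a lesion, Cst6 was higher in Synpo-/- DG than in CA3 (2.05, adjusted p = 6.49e-07), while the lipoprotein lipase gene Lpl was lower in DG in Synpo-/- (-1.19, adjusted p = 2.1e-06) and wildtype (-0.97, adjusted p = 0.00589) controls.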
